A study of Mus musculus with 8 samples.

Results

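Matrix keratinocytes of untreated Tet2/3 double knockout (DKO) mice were compared with those of untreated wild type (WT) mice, using 4 of the 8 libraries of the series, 2 of each genotype. All 29647 genes listed with a value in the untreated table entered, and 17448 of them passed the filter on low reads and were tested. The cells are labelled as hair matrix keratinocytes sorted from skin at postnatal day 4.5, and the DKO genotype is labelled Tet2/Tet3 DKO, Krt14-Cre, so that Cre is driven by the promoter of a keratin of basal epithelium. Both untreated groups received no agent. The other 4 libraries, WT and DKO from mice injected with 50 µg of 5-aza at day 2.5 and harvested at day 4.5, are set beside some results. The labels do not say whether replicates came from separate animals. Xist and Ddx3y, given below, differed in opposite directions between the 2 libraries of each genotype, so these were not repeats of the same sample. The p-values measure the spread between these libraries, in which sex and other differences between replicates cannot be told apart. Bulk RNA was measured, in which fewer cells of a type and less RNA per cell cannot be told apart.

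Tet2 and Tet3 encode dioxygenases that oxidise 5-methylcytosine, the methylated base found mostly at CG dinucleotides (CpGs) of mammalian DNA. The oxidised bases can be lost at replication or removed by base excision repair, so these enzymes oppose DNA methylation at promoters and enhancers. The hair matrix is the pool of dividing epithelial cells around the dermal papilla, a mesenchymal signalling centre, and its daughters build the shaft of the hair and the sheath that moulds it. Keratins and keratin-associated proteins of those layers were left aside here in favour of the rest of the transcriptome.

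Library totals were 19528602 to 22837436 reads, of which 55.8% to 62.0% lay in listed genes. Levels are FPKM, reads per kilobase of gene and per 1e6 library reads, and are used only to compare libraries within a gene, because the deposited length equals the summed exons of every annotated transcript in 97.5% of genes. Tet3 was 11.8 and 11.4 FPKM in WT and 6.92 and 7.31 FPKM in DKO, and Tet2 was 3.23 and 3.28 FPKM in WT and 2.72 and 2.55 FPKM in DKO, so at the level of whole genes neither transcript was absent, and no value within a deleted exon was analysed here. Summed markers of dermal fibroblasts were 6060 reads per 1e6 library reads (RPM) in WT replicate 1 against 12388 to 14744 in the other 3 libraries, so WT replicate 1 stood apart. Xist, transcribed from an inactive X chromosome, was 82.1 and 74.4 FPKM in replicates 1 of WT and DKO and 0.327 and 1.19 FPKM in replicates 2. The Y-linked Ddx3y had the opposite pattern. Each genotype thus held 1 library with the pattern of females and 1 with that of males, and sex is part of the spread within each group. Checking the cell type label, the matrix keratinocyte markers Lef1, Msx2 and Dlx3 each had at least 1306 reads in every library. Some of the matrix markers themselves differed between genotypes. Of 15 tested, 5 are called higher in the authors' deposited table and 0 lower, beside 1.35% and 0.82% of all tested genes. The 5 are the keratin genes Krt5, Krt14 and Krt35 and the genes Hoxc13 and Foxn1, while Lef1, Msx2 and Dlx3 are not called. The summed level of the matrix markers, these keratins included, was 2619 and 3210 RPM in WT and 3833 and 4178 in DKO. The summed fibroblast markers were above the summed matrix markers in every library, though sums over different genes do not give shares of cells.

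With limma on log2(FPKM + 1) and Benjamini-Hochberg adjustment, 1 gene of 17448 (0.00573%) passed an adjusted p of 0.05, the inner root sheath keratin gene Krt28, which fell. The Krt28 call ended when any of the 4 libraries was left out. Before adjustment, limma's p was under 0.05 for 1190 genes higher in DKO (6.82%) and for 807 lower (4.63%); without DKO replicate 2 these were 467 and 392, without DKO replicate 1 848 and 517, and without WT replicate 1 1104 and 962. The groups of 2 libraries did not overlap for 4247 higher genes (24.3%) and 3319 lower genes (19%). The authors' deposited table, made with DESeq2, calls 235 tested genes higher (1.35%) and 143 lower (0.82%) at an adjusted p under 0.05. Outside keratins and the other follicle families set aside, those are 185 higher and 135 lower genes. Families were set aside by symbol. Gm49425, which lies in a run of higher keratin genes, therefore stayed among the 185. So did 4930553J12Rik, Gm10228, Gm10229 and 1110025L11Rik, which lie in a run of higher keratin-associated protein genes. They enter the counts outside the follicle families below. A fit of limma on log2(RPM + 1), added after the data had been seen because the added 1 weighs heavily on genes of many exons, called 160 genes higher (0.917%) and 71 lower (0.407%), and 219 of these 231 are also called in the same direction by the authors' deposited table. In what follows, "called" refers to the authors' deposited table unless limma is named. Every count of list members below is to be read beside these shares of all tested genes.

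**Figure D1:**
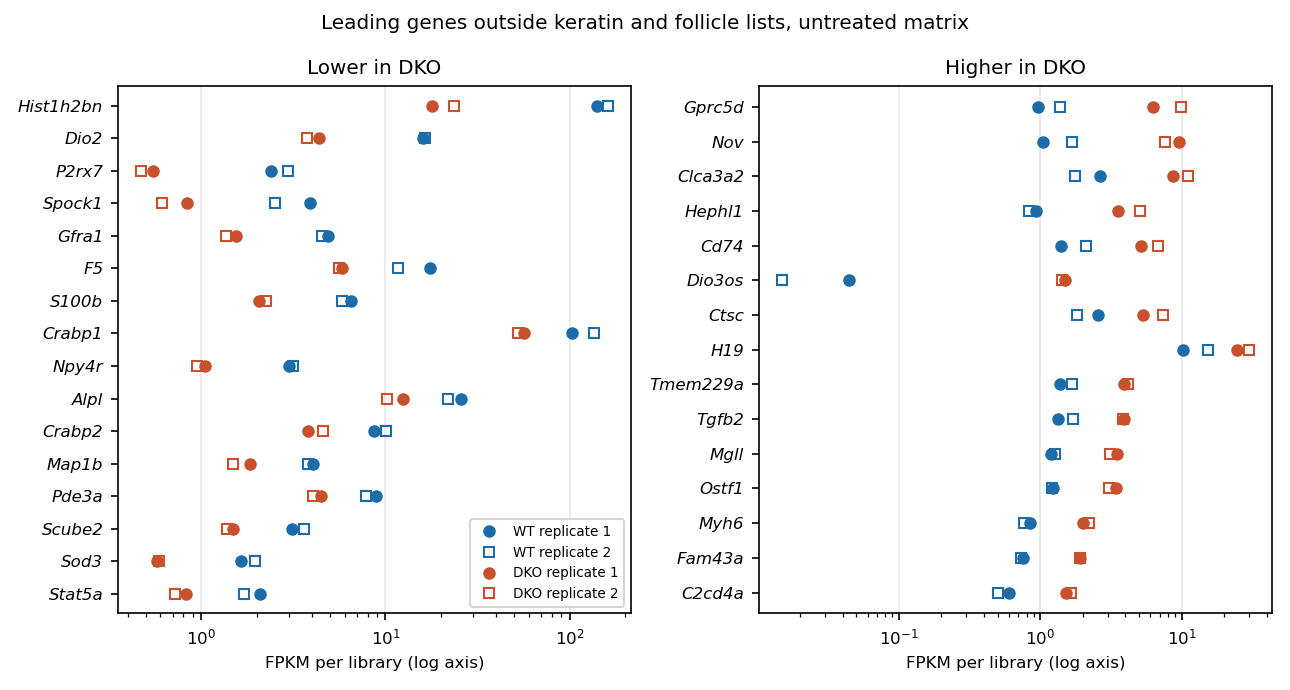
FPKM in each untreated library (log axis) for the genes with the smallest limma p or authors' adjusted p in each direction, leaving out unnamed gene models and microRNAs. WT libraries are blue, DKO libraries orange, filled circles are replicates 1 and open squares replicates 2. The groups did not overlap for any gene shown, a condition of their choice.

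Hist1h2bn, a replication-dependent histone H2B gene, had the largest log2 difference (-2.81) and the smallest adjusted p in the authors' deposited table (6.4e-51) of the lower genes named outside the keratin families. It was 140.5 and 161 FPKM in WT and 17.9 and 23.7 FPKM in DKO, 7.25-fold lower. The near-identical coding sequences of H2B genes make its reads hard to assign. Other Hist1 genes are called in both directions, Hist1h2bj, Hist1h2bb and Hist1h3a lower and Hist1h4i, Hist1h4a and Hist1h1c higher. Dio2 (ENSMUSG00000007682, chromosome 12, 90724552 to 90738438, minus strand), a deiodinase that converts thyroxine to the active thyroid hormone, was 16.1 and 16.5 FPKM in WT and 4.37 and 3.75 FPKM in DKO, 4.004-fold lower in DKO. P2rx7 (ENSMUSG00000029468, chromosome 5, 122643911 to 122691432, plus strand), an ATP-gated ion channel, was 2.38 and 2.97 FPKM in WT and 0.551 and 0.472 FPKM in DKO, 5.23-fold lower. Gfra1 (ENSMUSG00000025089, chromosome 19, 58235604 to 58455909, minus strand), a co-receptor for the growth factor GDNF, was 4.91 and 4.499 FPKM in WT and 1.54 and 1.37 FPKM in DKO. The 2 WT libraries of Dio2, P2rx7 and Gfra1 lay close together and well above both DKO libraries. Npy4r, a receptor for pancreatic polypeptide, was 3.01 and 3.16 FPKM in WT and 1.04 and 0.946 FPKM in DKO. S100b, a calcium-binding protein gene of glia and some other cells, was 6.48 and 5.78 FPKM in WT and 2.07 and 2.25 FPKM in DKO. The adjusted p in the authors' deposited table was 1.6e-39 for Dio2, 7.0e-31 for P2rx7, 3.2e-26 for Gfra1, 2.6e-06 for Npy4r and 2.1e-04 for S100b. With limma on log2(FPKM + 1) the log2 difference of Dio2 was -1.77 ± 0.10 (SE) with an adjusted p of 0.0631, and none of Dio2, P2rx7, Gfra1, Npy4r and S100b passed. With limma on log2(RPM + 1) all 5 passed, at adjusted p of 3.9e-04, 8.0e-04, 8.0e-04, 0.00851 and 0.0163 in the same order.

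Secreted and cytoskeletal genes were also among the leading lower genes. Spock1, which encodes a secreted proteoglycan, was 3.90 and 2.502 FPKM in WT and 0.833 and 0.615 FPKM in DKO, 4.42-fold lower. F5, coagulation factor V, was 17.4 and 11.8 FPKM in WT and 5.83 and 5.61 FPKM in DKO. Pappa2, a protease that cleaves IGF-binding proteins, was 41.5 and 29.0 FPKM in WT and 12.5 and 14.5 FPKM in DKO, and its substrate gene Igfbp5 was 38.6 and 48.5 FPKM in WT and 30.1 and 24.9 FPKM in DKO. Map1b, a microtubule-associated protein gene best known from neurons, was 4.04 and 3.79 FPKM in WT and 1.84 and 1.48 FPKM in DKO. Sod3, the extracellular superoxide dismutase, was 1.64 and 1.96 FPKM in WT and 0.578 and 0.589 FPKM in DKO, while the peroxidase gene Gpx3 was 7.91 and 5.07 FPKM in WT and 3.56 and 3.73 FPKM in DKO. The adjusted p in the authors' deposited table ranged from 1.0e-17 for Spock1 to 0.0472 for Gpx3 among these 7 genes.

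All 3 members of the SCUBE family, secreted proteins that help to release and present Hedgehog and other ligands, were lower in every DKO library than in either WT library. Scube2 was 3.09 and 3.61 FPKM in WT and 1.49 and 1.38 FPKM in DKO. Scube1 was 9.44 and 9.49 FPKM in WT and 6.06 and 6.78 FPKM in DKO, and Scube3 was 17.5 and 13.6 FPKM in WT and 9.47 and 8.14 FPKM in DKO. The authors' deposited table gives adjusted p of 1.5e-04 for Scube1, 5.4e-11 for Scube2 and 7.3e-06 for Scube3. Scube1 and Scube3 were added to the account after their values had been seen.

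Genes of transcription factors, a growth factor and an enzyme of second messengers were lower too. Stat5a, a transcription factor activated by cytokine receptors, was 2.09 and 1.70 FPKM in WT and 0.828 and 0.720 FPKM in DKO, 2.45-fold lower, and the adjoining Stat5b was 5.07 and 4.84 FPKM in WT and 3.54 and 3.51 FPKM in DKO. Vegfa, the vascular growth factor, was 2.10 and 1.64 FPKM in WT and 0.744 and 0.843 FPKM in DKO, and Sox18, a Sox factor known from endothelium and dermal papilla, was 18.1 and 19.6 FPKM in WT and 10.96 and 11.96 FPKM in DKO. Vdr, the vitamin D receptor needed for the hair cycle, was 8.07 and 11.4 FPKM in WT and 4.85 and 6.34 FPKM in DKO. Pde3a, a phosphodiesterase that degrades cyclic AMP, was 8.94 and 7.86 FPKM in WT and 4.49 and 4.04 FPKM in DKO. All 6 are called lower in the authors' deposited table, with adjusted p from 1.8e-09 for Pde3a to 0.0388 for Stat5b.

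Retinoic acid, made from vitamin A, is bound in the cytoplasm by cellular retinoic acid binding proteins and degraded by enzymes of the Cyp26 family. Of 16 tested genes of retinoic acid handling, 3 are called lower in the authors' deposited table and 0 higher. Crabp1 was 103 and 136 FPKM in WT and 56.9 and 52.2 FPKM in DKO, Crabp2 was 8.69 and 10.1 FPKM in WT and 3.81 and 4.59 FPKM in DKO, and the degrading enzyme gene Cyp26b1 was 8.15 and 6.01 FPKM in WT and 4.54 and 4.41 FPKM in DKO. Over all 16 members the median log2 difference was -0.04, beside 0.01 over all tested genes, with 3 higher and 3 lower at an unadjusted p under 0.05. Without WT replicate 1 these were 1 and 7, with a median of -0.10, and without either DKO library 1 and 2.

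Purinergic genes, the receptors and enzymes of extracellular ATP and its products, also went both ways. Besides P2rx7, the authors' deposited table calls Enpp2 lower and P2ry2 higher. Enpp2, which encodes autotaxin, the enzyme that makes lysophosphatidic acid, was 33.9 and 32.8 FPKM in WT and 23.6 and 21.4 FPKM in DKO. P2ry2, a receptor for ATP and UTP, was 0.0620 and 0.0855 FPKM in WT and 0.243 and 0.317 FPKM in DKO, from 16 and 22 reads in WT and 61 and 70 in DKO. Of 23 tested members, 5 were higher and 4 lower at an unadjusted p under 0.05. Without WT replicate 1 these were 2 and 4, without DKO replicate 1 3 and 2, and without DKO replicate 2 2 and 1.

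Markers of dermal papilla had lower members beside these genes. Of 18 tested markers, 10 were lower and 0 higher at an unadjusted p under 0.05, beside 4.63% and 6.82% of all tested genes. The median log2 difference was -0.50. The authors' deposited table calls 7 lower, beside 0.82% of all tested genes. Corin, a serine protease of dermal papilla cells, was 13.6 and 13.5 FPKM in WT and 5.68 and 6.35 FPKM in DKO. Alpl, alkaline phosphatase, was 25.7 and 22.0 FPKM in WT and 12.4 and 10.3 FPKM in DKO, and the Wnt agonist Rspo3 was 21.5 and 17.0 FPKM in WT and 10.9 and 9.82 FPKM in DKO. The summed level of the 18 was 4233 and 3364 RPM in WT and 2685 and 2511 in DKO. Crabp1 is itself one of the markers, and in 13 of the 18 both DKO libraries were below both WT libraries, beside 19% of all tested genes. Without WT replicate 1, 8 were lower and the median was -0.35, and without either DKO library 6 were lower. The part of this list in the lower genes above was not tested.

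The higher genes outside the keratin families held matricellular and growth factor genes. Nov, also called Ccn3, a secreted regulator of adhesion, was 1.04 and 1.67 FPKM in WT and 9.62 and 7.63 FPKM in DKO, 6.37-fold higher in DKO. Tgfb2, a ligand of the transforming growth factor beta receptors, was 1.34 and 1.70 FPKM in WT and 3.93 and 3.86 FPKM in DKO, 2.57-fold higher. Among activins, dimers of inhibin beta subunits, the subunits moved in opposite directions: Inhbb was 0.885 and 1.21 FPKM in WT and 2.13 and 2.41 FPKM in DKO, whereas Inhba, which is also a dermal papilla marker, was 18.6 and 15.8 FPKM in WT and 9.52 and 8.99 FPKM in DKO. Fst, which encodes the activin-binding protein follistatin, was 16.2 and 9.13 FPKM in WT and 6.77 and 5.74 FPKM in DKO and is not called (adjusted p = 0.585 in the authors' deposited table). The adjusted p in the authors' deposited table was 7.7e-22 for Nov, 7.9e-12 for Tgfb2, 0.0211 for Inhbb and 5.1e-08 for Inhba. Of 26 tested genes of TGF-beta and activin signalling, 6 were higher and 2 lower at an unadjusted p under 0.05. The higher count was 3 without WT replicate 1 or either DKO library, and without WT replicate 2 the counts were 9 and 3.

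Clca3a2, a member of the calcium-activated chloride channel regulator family, was 2.65 and 1.75 FPKM in WT and 8.71 and 11.1 FPKM in DKO, 4.497-fold higher. Gprc5d, an orphan receptor gene expressed in the cortex and cuticle of hair, was 0.972 and 1.37 FPKM in WT and 6.32 and 9.96 FPKM in DKO, 6.95-fold higher. Hephl1, a copper-dependent ferroxidase whose loss alters hair in mice, was 0.936 and 0.837 FPKM in WT and 3.57 and 5.05 FPKM in DKO, 4.86-fold higher. Both DKO libraries lay well above both WT libraries for each of these 3 genes. Tmem229a was 1.38 and 1.68 FPKM in WT and 3.89 and 4.19 FPKM in DKO, and Ostf1, an adaptor of osteoclast signalling, was 1.23 and 1.21 FPKM in WT and 3.45 and 3.05 FPKM in DKO. The adjusted p in the authors' deposited table was 7.1e-20 for Clca3a2, 3.5e-19 for Gprc5d, 7.5e-16 for Hephl1, 1.3e-07 for Tmem229a and 2.7e-07 for Ostf1. Clca3a2 has close paralogues beside it, so its reads may be split between copies.

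DNA methylation is a feature of CpGs, so the 250 bases before the start of transcription are shown for 3 genes called lower and 2 called higher, taken outside the follicle families from those with a mean of at least 1 FPKM, the smallest authors' adjusted p and a promoter in the RefSeq table (GRCm38.p6). Each runs 5′ to 3′ on the strand of its gene, with every CpG in capitals. The lower genes come first.
Dio2 (chr12:90739039-90739288, minus strand): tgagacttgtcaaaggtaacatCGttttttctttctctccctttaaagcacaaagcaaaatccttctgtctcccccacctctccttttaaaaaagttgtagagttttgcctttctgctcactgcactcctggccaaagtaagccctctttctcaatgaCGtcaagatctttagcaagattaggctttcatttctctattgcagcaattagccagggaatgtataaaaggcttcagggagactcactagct
P2rx7 (chr5:122643677-122643926, plus strand): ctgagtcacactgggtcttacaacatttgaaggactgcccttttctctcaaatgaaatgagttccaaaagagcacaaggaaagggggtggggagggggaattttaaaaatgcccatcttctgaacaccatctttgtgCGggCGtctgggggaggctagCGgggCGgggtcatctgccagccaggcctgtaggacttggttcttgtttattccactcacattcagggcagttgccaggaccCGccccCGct
Gfra1 (chr19:58455399-58455648, minus strand): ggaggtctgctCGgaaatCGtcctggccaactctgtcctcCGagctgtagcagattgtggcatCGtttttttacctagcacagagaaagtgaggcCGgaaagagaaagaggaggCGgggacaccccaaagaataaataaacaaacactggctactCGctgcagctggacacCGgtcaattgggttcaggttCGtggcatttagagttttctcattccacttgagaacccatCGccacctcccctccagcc
Gprc5d (chr6:135118284-135118533, minus strand): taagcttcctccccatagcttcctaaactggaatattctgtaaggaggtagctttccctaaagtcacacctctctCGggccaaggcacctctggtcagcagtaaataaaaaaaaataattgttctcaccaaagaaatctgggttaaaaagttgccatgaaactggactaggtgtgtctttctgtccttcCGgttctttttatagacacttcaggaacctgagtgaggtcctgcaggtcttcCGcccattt
Hephl1 (chr9:15112109-15112358, minus strand): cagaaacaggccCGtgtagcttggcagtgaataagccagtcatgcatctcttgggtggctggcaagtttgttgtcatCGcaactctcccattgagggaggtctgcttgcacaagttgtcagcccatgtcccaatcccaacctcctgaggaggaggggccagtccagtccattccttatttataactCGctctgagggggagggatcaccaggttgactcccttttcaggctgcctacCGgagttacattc

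Few CpGs stand in these windows: 2 for Dio2, 6 for P2rx7, 10 for Gfra1, 3 for Gprc5d and 4 for Hephl1. Over the 300 bases from 250 before to 50 after the start, the ratio of observed to expected CpG was 0.202 for Dio2, 0.205 for Gprc5d and 0.549 for Gfra1, against a median of 0.762 over the 10225 tested protein-coding genes with a promoter, 73.8% of such genes. Promoters with a ratio under 0.2 had the highest share of higher genes. Outside the follicle families, 21 of 519 genes with such promoters (4.05%) are called higher in the authors' deposited table and 3 (0.578%) lower. With a ratio of 0.8 or more, 32 of 4454 (0.718%) are called higher and 27 (0.606%) lower. In the 3 steps between, the shares called higher were 2.11%, 1.26% and 1.10%, and the shares called lower were 2.00%, 1.19% and 0.928%. The median number of reads per library differed over the same steps, from 52.5 in promoters under 0.2 to 650.4 in promoters of 0.8 or more, and its part in these shares was not tested. The letters TATAAA, on either strand, occurred in 18.2% of the promoters of higher protein-coding genes outside the follicle families, 10.99% of those of lower ones and 7.32% of all tested protein-coding genes.

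**Figure D2:**
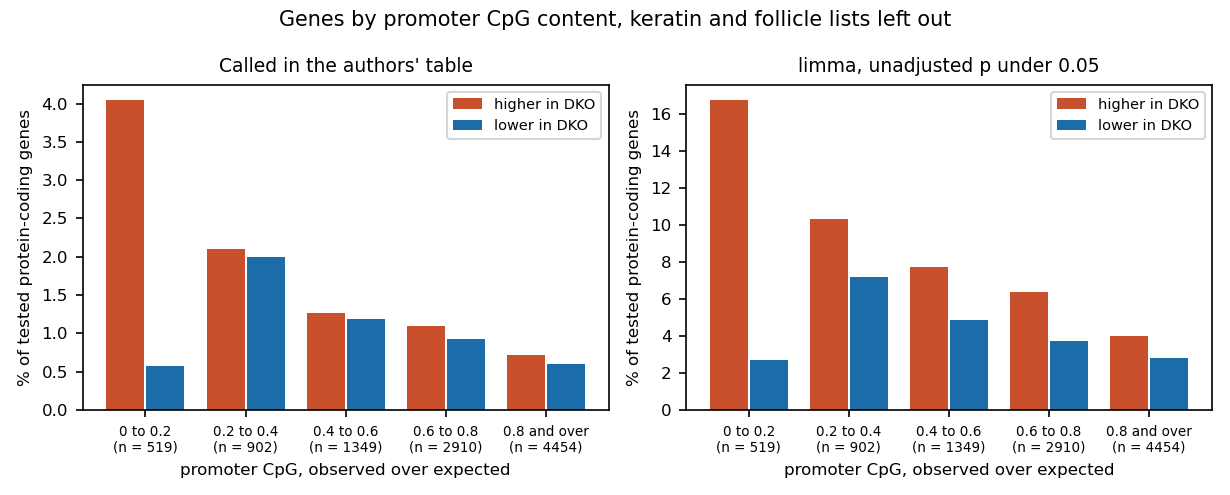
Share of tested protein-coding genes higher (orange) or lower (blue) in DKO, by the observed over expected CpG ratio of the promoter, with keratin and follicle families left out. The left panel gives calls of the authors' deposited table and the right panel limma at an unadjusted p under 0.05, and the higher share is 4.05% on the left and 16.8% on the right in promoters under 0.2.

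Lipid genes were among the lists with the most higher members. Of 26 tested genes of lipid storage and lipases, 11 were higher and 0 lower at an unadjusted p under 0.05, and the median log2 difference was 0.16. The count was 10 without WT replicate 1 and 7 of 25 without DKO replicate 2. Mgll, monoglyceride lipase, which also degrades an endocannabinoid, was 1.20 and 1.28 FPKM in WT and 3.52 and 3.09 FPKM in DKO. The fatty acid carrier Cd36 was 0.190 and 0.179 FPKM in WT and 0.631 and 0.625 FPKM in DKO, and Fabp4, a fatty acid binding protein, was 0.239 and 0.343 FPKM in WT and 0.844 and 1.37 FPKM in DKO; both are also adipocyte markers and low in every library. In fatty acid synthesis and elongation, 5 of 23 were higher and 1 lower (3 and 1 without DKO replicate 1). Elovl3, an elongase of very long fatty acids known from sebaceous gland and hair follicle, was 2.15 and 1.30 FPKM in WT and 7.58 and 5.88 FPKM in DKO. Acacb, an acetyl-CoA carboxylase, was 0.303 and 0.364 FPKM in WT and 0.728 and 0.654 FPKM in DKO, and the malic enzyme gene Me1 was 1.61 and 1.53 FPKM in WT and 2.57 and 2.87 FPKM in DKO. Fads1, a desaturase that makes arachidonic acid, went the other way, at 22.97 and 26.5 FPKM in WT and 16.7 and 15.3 FPKM in DKO. The authors' deposited table calls all 7, with adjusted p from 7.9e-16 for Mgll to 0.0181 for Me1. Beside these, 6 of 12 sebaceous markers were higher at an unadjusted p under 0.05, with a summed level of 306 and 391 RPM in WT and 418 and 397 in DKO. Their part in the lipid values was not tested. Cholesterol synthesis had 1 of 24 members higher, and 0 to 3 when 1 library was left out.

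**Figure D3:**
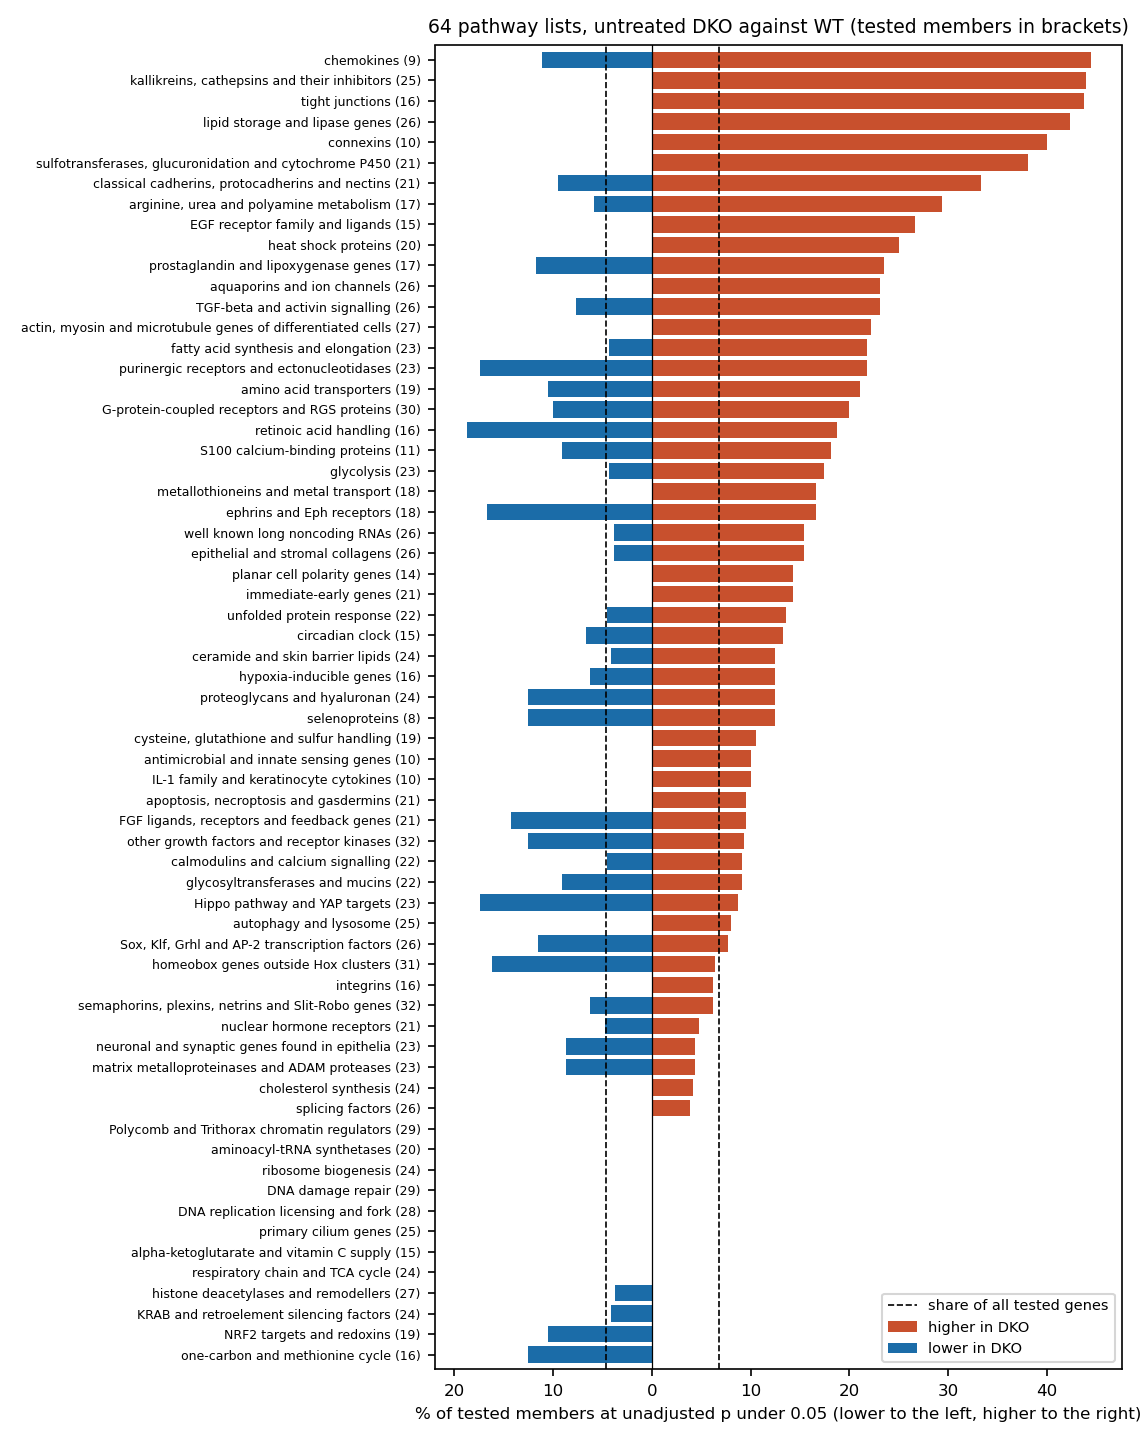
Percentage of the tested members of each of 64 pathway lists at an unadjusted limma p under 0.05, lower in DKO to the left (blue) and higher to the right (orange). Dashed lines mark the shares over all tested genes, 4.63% lower and 6.82% higher; kallikreins, cathepsins and inhibitors, tight junctions and lipid storage genes reach the right end with no lower member.

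Proteases of the skin surface and their inhibitors showed the same one-sided count. Over 25 tested kallikreins, cathepsins and inhibitors, the median log2 difference was 0.31. The groups did not overlap in 15 members, all higher in DKO, beside 24.3% of all tested genes. At an unadjusted p under 0.05, 11 were higher and 0 lower, beside 6.82% and 4.63% of all tested genes. Without DKO replicate 2 the count was 5 of 23 tested, without WT replicate 1 it was 14 higher and 1 lower, and without WT replicate 2 15 and 2. Ctsc, cathepsin C, was 2.57 and 1.81 FPKM in WT and 5.33 and 7.44 FPKM in DKO. Spint1, an inhibitor of the membrane protease matriptase, was 5.604 and 5.38 FPKM in WT and 10.3 and 13.7 FPKM in DKO. Stfa3, a stefin A that inhibits cysteine cathepsins, was 55.2 and 32.8 FPKM in WT and 145 and 190.1 FPKM in DKO, but stefin A genes are near-identical copies and the split of reads among them is uncertain. The authors' deposited table calls these 3 higher, with adjusted p of 2.8e-09 for Ctsc, 8.1e-09 for Spint1 and 0.00378 for Stfa3. Markers of the outer root sheath and bulge had 5 of 14 members higher and 0 lower, 4 of them called in the authors' deposited table, with a summed level of 343 and 384 RPM in WT and 466 and 577 in DKO. The count was 3 of 13 without either DKO library. The 4 called outer root sheath and bulge members are the keratin genes Krt15, Krt16, Krt6a and Krt6b, a family otherwise left aside here. No marker of that list outside the keratins is called. Summed markers of interfollicular epidermis overlapped between groups, at 1677 and 632 RPM in WT and 875 and 1409 in DKO. The part of these epithelial cells in the protease and junction values was not tested.

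Cell junction genes had more higher than lower members. Beside their counts stand shares of 6.82% higher and 4.63% lower over all tested genes, which the integrin count below is near. Of 16 tested tight junction genes, 7 were higher and 0 lower at an unadjusted p under 0.05. The count was 5 without WT replicate 1, 4 of 15 without DKO replicate 1 and 2 of 15 without DKO replicate 2. Cldn1, the main claudin of the epidermal barrier, was 6.98 and 6.30 FPKM in WT and 10.3 and 13.7 FPKM in DKO, and Cldn4 was 10.9 and 7.81 FPKM in WT and 15.01 and 21.9 FPKM in DKO. Marveld2, which encodes tricellulin, the protein of corners where 3 cells meet, was 1.07 and 1.03 FPKM in WT and 2.12 and 2.17 FPKM in DKO. In adherens junctions, Cdh1, E-cadherin, was 11.9 and 9.58 FPKM in WT and 17.7 and 22.5 FPKM in DKO, and Nectin4 was 6.06 and 4.83 FPKM in WT and 8.40 and 12.2 FPKM in DKO. Among 10 connexins, the gap junction channel proteins, 4 were higher and 0 lower (2 and 1 without WT replicate 2, 2 and 0 without DKO replicate 2), and Gja3 was 0.618 and 0.965 FPKM in WT and 1.94 and 2.14 FPKM in DKO. The adjusted p in the authors' deposited table was 1.4e-04 for Cldn1, 0.00544 for Cldn4, 2.0e-04 for Marveld2, 1.6e-05 for Cdh1, 3.8e-04 for Nectin4 and 0.0294 for Gja3. Integrins, the receptors for basement membrane, had 1 of 16 members higher and 0 lower, but 1 higher and 3 lower without WT replicate 1. The outer root sheath and bulge markers given above, higher in sum in both DKO libraries, stand beside these values too. Their called members are all keratin genes.

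Regulators of epithelial identity and polarity were called with them. Esrp2, a splicing factor of epithelial isoforms, was 8.11 and 8.11 FPKM in WT and 11.6 and 13.7 FPKM in DKO. Grhl1, a grainyhead factor that acts on junction genes in epidermis, was 6.998 and 6.54 FPKM in WT and 8.88 and 10.8 FPKM in DKO. The planar polarity genes Fzd6 and Vangl2 encode proteins that orient hair follicles. Fzd6 was 3.302 and 3.58 FPKM in WT and 5.00 and 5.61 FPKM in DKO. Vangl2 was 4.62 and 4.92 FPKM in WT and 6.10 and 7.54 FPKM in DKO. The authors' deposited table gives adjusted p of 0.00104, 0.0280, 0.00701 and 0.0375 in that order. In the Hippo pathway, which restrains growth, Wwtr1 (TAZ) was 8.5 and 8.49 FPKM in WT and 6.53 and 5.63 FPKM in DKO and the large cadherin Fat4 was 3.92 and 4.18 FPKM in WT and 3.06 and 2.54 FPKM in DKO; both are called lower (authors' deposited table, adjusted p of 0.0305 and 0.0135).

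Several genes of transport and metal handling are called higher as well. Mt4, a metallothionein of stratified epithelium, was 14.97 and 19.2 FPKM in WT and 35.0 and 49.4 FPKM in DKO. Slc40a1, the iron exporter ferroportin, was 1.93 and 1.31 FPKM in WT and 2.82 and 3.64 FPKM in DKO, and Tfrc, the transferrin receptor that takes iron up, was 8.47 and 10.2 FPKM in WT and 12.6 and 14.1 FPKM in DKO. Slc7a5, a transporter of large neutral amino acids, was 35.9 and 46.0 FPKM in WT and 59.0 and 63.4 FPKM in DKO, and Slc1a4, which carries alanine and serine, was 2.21 and 2.44 FPKM in WT and 4.15 and 4.38 FPKM in DKO. Trpv3, a heat-gated calcium channel of keratinocytes, was 2.21 and 2.78 FPKM in WT and 4.03 and 4.96 FPKM in DKO. The authors' deposited table calls these 6 higher, with adjusted p from 1.6e-04 for Mt4 to 0.0112 for Tfrc. Amino acid transporters went both ways as a list: of 19 tested, 3 are called higher and 2 lower. With limma 4 were higher and 2 lower at an unadjusted p under 0.05, and the median log2 difference was -0.0029. In the polyamine pathway Odc1, its first enzyme, was 18.7 and 32.6 FPKM in WT and 42.7 and 59.2 FPKM in DKO: the groups did not overlap, but libraries of a group differed widely and the gene is not called (adjusted p = 0.558 in the authors' deposited table).

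Thyroid hormone handling extended beyond Dio2. Dio3os, a noncoding RNA transcribed next to the hormone-inactivating deiodinase Dio3, had 3 and 1 reads in WT and 97 and 82 in DKO, at 0.0447 and 0.0149 FPKM in WT and 1.49 and 1.43 FPKM in DKO. Dio3 itself was 0.0252 and 0.114 FPKM in WT and 0.414 and 0.295 FPKM in DKO, with 2 and 9 reads in WT and 32 and 20 in DKO. Slc16a10, a transporter that carries aromatic amino acids and thyroid hormone, was 3.69 and 4.04 FPKM in WT and 6.10 and 6.53 FPKM in DKO. The receptor genes Thra and Thrb were 8.16 and 9.72 in WT and 10.1 and 9.54 in DKO and 1.35 and 1.23 in WT and 1.13 and 1.03 in DKO FPKM. The authors' deposited table gives adjusted p of 4.5e-08 for Dio3os and 4.1e-04 for Slc16a10, and calls none of Dio3, Thra and Thrb. Dio3os and Dio3 lie in an imprinted region of chromosome 12 whose noncoding RNA Rian was 2.74 and 2.28 FPKM in WT and 1.76 and 1.78 FPKM in DKO, and the imprinted H19 of chromosome 7 was 10.3 and 15.3 FPKM in WT and 24.8 and 29.8 FPKM in DKO.

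Stress and other gene groups were mixed. Of 20 heat shock genes 5 were higher and 0 lower at an unadjusted p under 0.05; without WT replicate 1 the count was 2 and the median log2 difference moved from 0.12 to -0.03, and without DKO replicate 2 the count was 1. The small heat shock protein gene Hspb8 was 6.88 and 6.88 FPKM in WT and 12.3 and 16.1 FPKM in DKO and Hspa1b was 14.5 and 17.5 FPKM in WT and 22.6 and 24.2 FPKM in DKO, a gene with a near-identical copy. Markers of dissociation stress had 2 of 12 members higher (0 without DKO replicate 2; 2 higher and 3 lower without WT replicate 2) and overlapped between groups in summed level. Selenbp1, a selenium-binding protein that oxidises methanethiol, was 1.71 and 2.52 FPKM in WT and 4.10 and 5.50 FPKM in DKO. Aldh3b2, a lipid aldehyde dehydrogenase, was 3.99 and 2.27 FPKM in WT and 7.14 and 8.84 FPKM in DKO. Among guidance genes the ephrin Efnb2 was 11.2 and 13.7 FPKM in WT and 17.3 and 18.7 FPKM in DKO and the receptor Epha1 was 9.73 and 11.9 FPKM in WT and 14.2 and 17.1 FPKM in DKO, whereas the receptor Epha7 was 1.55 and 0.892 FPKM in WT and 0.598 and 0.605 FPKM in DKO and the semaphorin receptor Plxnd1 was 8.28 and 7.49 FPKM in WT and 5.55 and 4.97 FPKM in DKO. Kitl, the ligand that melanocytes need, was 6.66 and 9.82 FPKM in WT and 12.4 and 14.4 FPKM in DKO. The authors' deposited table calls all 9 of these genes, with adjusted p from 2.1e-05 for Hspb8 to 0.0264 for Epha1. Myh6, a heart myosin gene, was 0.853 and 0.770 FPKM in WT and 1.99 and 2.21 FPKM in DKO. Summed skeletal muscle markers were 48.5 and 40.7 RPM in WT and 93.7 and 96.3 in DKO. Of the 7 tested muscle markers, 2 were higher and 0 lower at an unadjusted limma p under 0.05, beside 6.82% and 4.63% of all tested genes. Only 1, Ttn, is called, and the median log2 difference of the 7 was 0.13, so the sum does not speak for the list as a whole.

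Immune cell genes had low levels and several higher members. Cd74, the invariant chain of MHC class II, was 1.41 and 2.10 FPKM in WT and 5.12 and 6.86 FPKM in DKO. Of 13 tested immune markers 9 were higher and 0 lower at an unadjusted p under 0.05, and 3 of 16 fixed markers did not pass the filter. Without WT replicate 1 there were 7 higher, and without DKO replicate 1 6 of 11. Their summed level was 17.5 and 28.4 RPM in WT and 57.8 and 69.5 in DKO, none was at 0 in all libraries, and the part of immune cells in other higher genes was not tested. The chemokine gene Cxcl14 was 21.6 and 28.0 FPKM in WT and 41.8 and 38.7 FPKM in DKO (called, adjusted p = 2.0e-04 in the authors' deposited table).

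**Figure D4:**
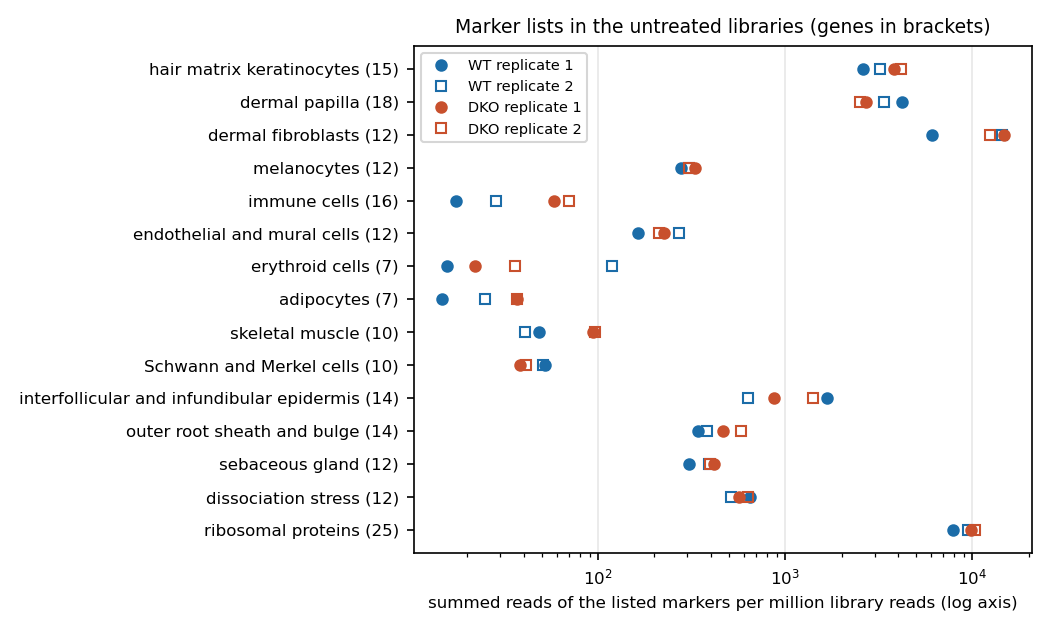
Summed reads of each marker list per 1e6 library reads (log axis) in the 4 untreated libraries, WT in blue and DKO in orange, filled circles for replicates 1 and open squares for replicates 2. Dermal papilla markers are lower and immune markers higher in both DKO libraries, and fibroblast markers are low in WT replicate 1 alone.

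In core cellular machinery, no member of 8 lists reached an unadjusted p under 0.05 in either direction: respiratory chain and TCA cycle (24 tested, median log2 difference 0.07), supply of alpha-ketoglutarate and vitamin C, the cosubstrate and cofactor of TET enzymes (15, 0.01), DNA replication (28, -0.11), DNA repair (29, -0.04), ribosome biogenesis (24, 0.05), aminoacyl-tRNA synthetases (20, 0.08), Polycomb and Trithorax genes (29, 0.00) and primary cilium genes (25, -0.03). The authors' deposited table calls none of these members. Of 24 genes that silence retroelements, 1 was lower and 0 higher (0 to 2 lower when 1 library was left out). Medians of single pairs of libraries differed in sign for several of these lists: the replication list was 0.07 between replicates 1 and -0.25 between replicates 2. Small differences could still share a sign: 25 of 28 replication genes were negative, and all 25 ribosomal protein genes were positive, with a median of 0.21. Of the ribosomal protein genes, 1 was higher at an unadjusted p under 0.05, beside 6.82% of all tested genes. In 11 the groups did not overlap, beside 24.3% of all tested genes in that direction. Summed ribosomal protein genes were 7849 and 9524 RPM in WT and 9884 and 10269 in DKO, and the median was 0.08 without WT replicate 1. A p that misses the threshold does not show that the genes were unchanged.

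Called genes sometimes lay side by side. Within 100 kb of each other, the authors' called genes formed 25 runs holding 78 genes, and 14 runs held no gene of the follicle families. Of those 14, 10 went in a single direction. Stat5b and Stat5a (chromosome 11, 100780731 to 100885169) were both lower. Wnt6 and Wnt10a, Wnt ligands of hair epithelium (chromosome 1, 74771892 to 74804179), were both higher, at 8.21 and 8.73 in WT and 14.1 and 13.4 in DKO and 4.69 and 6.01 in WT and 9.42 and 12.3 in DKO FPKM. Fads1 and Myrf (chromosome 19, 10182888 to 10240748) were both lower, Myrf, a membrane-bound transcription factor, being 0.717 and 0.564 FPKM in WT and 0.337 and 0.242 FPKM in DKO. Lncpint, a p53-induced noncoding RNA (chromosome 6, 31082565 to 31220488), and 5330406M23Rik, which lies within its span, had 81 and 98 and 39 and 33 reads in WT against 7 and 11 and 2 and 3 in DKO. Gm20276 likewise lies within Rspo3, so the runs mix overlapping annotations with separate neighbours. Nov and Enpp2 adjoin on chromosome 15 (54745702 to 54952892) and went in opposite directions.

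Set beside the 5-aza libraries, which share no library with the untreated comparison, most called genes kept their sign. Of 185 called higher outside the follicle families, 169 (91.4%) had a positive DKO minus WT difference after 5-aza, and of 135 called lower, 122 (90.4%) had a negative one. Over all 17272 genes of both fits the signs were alike in 62.1%. The differences were smaller: the median log2 difference of the higher genes was 0.59 untreated and 0.28 after 5-aza, and that of the lower genes -0.55 and -0.19. The genes were chosen for their untreated difference, so a smaller one in other libraries reads as a description only, and the tables were processed separately. With limma on the interaction of genotype and 5-aza over 18574 genes, 1 of the 320 genes passed, Dio3os (adjusted p = 0.0438), while 111 had an unadjusted p under 0.05. Crabp1 was 64.5 and 24.4 FPKM in WT and 8.25 and 20.1 FPKM in DKO after 5-aza, H19 was 9.40 and 8.90 and 23.2 and 21.5, and F5 was 3.01 and 1.49 and 0.301 and 0.599. For Hist1h2bn they were 2.84 and 5.92 FPKM in WT and 3.86 and 2.16 FPKM in DKO, so the groups that lay far apart without treatment overlapped after it. Every one of these values was also below all the untreated values of both genotypes given above. Listed genes held 38.4% to 42.4% of library reads after 5-aza and 55.8% to 62.0% without it. Treatment and processing of the libraries cannot be told apart, so no effect of 5-aza is read from this gene.

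**Figure D5:**
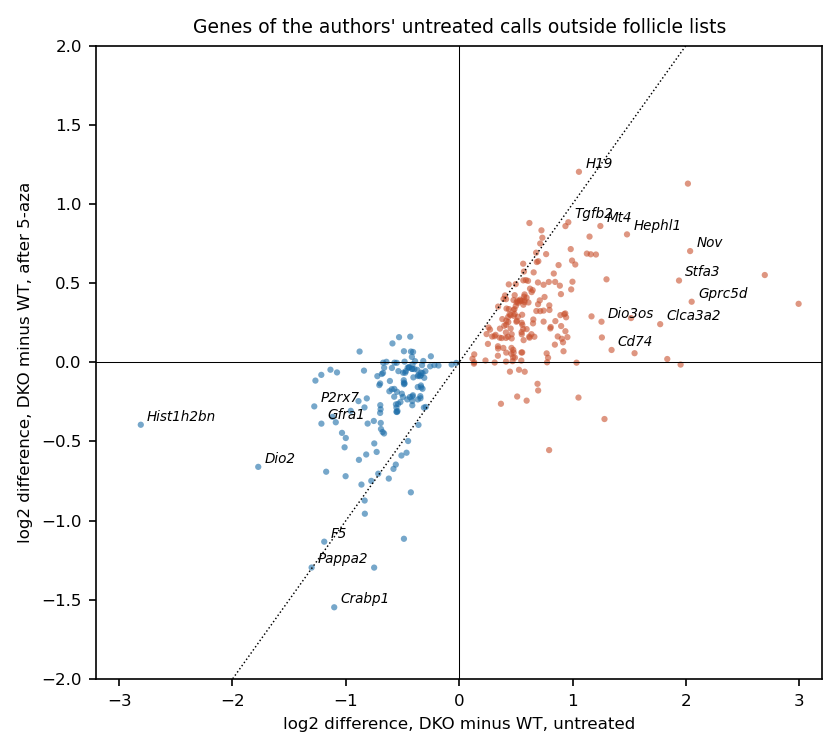
Log2 difference of DKO minus WT without treatment (horizontal) and after 5-aza (vertical), both on log2(FPKM + 1), for the genes called in the authors' untreated table outside the follicle families (orange higher, blue lower). The dotted line marks equal differences; medians are 0.59 and 0.28 for higher genes and -0.55 and -0.19 for lower genes.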

How the data were processed

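RNA was sequenced from sorted matrix keratinocytes in 8 libraries, 2 in each of 4 groups; groups were taken from the sample titles. Per the submitters' processing notes, the tools were DESeq2, HTSeq, STAR and Trim Galore and the builds GRCm38 and mm10. Versions, and the strand setting of the counting, are not given in the sources used here, so reads of overlapping antisense genes cannot be told apart. The labels' protocols name 2 library kits without saying which samples each made. The authors deposited 1 table per treatment with FPKM per library, gene length and, per the file headers, a mean signal of normalized reads, log2 fold changes with standard errors, and p-values with adjusted p-values. The authors' deposited log2 values run WT over DKO, and the sign was reversed. FPKM times length gave whole reads for the libraries of both tables within a tolerance of 0.001. Rows naming no gene (no feature 36.5%, ambiguous 1.26% and not unique 2.66% of the authors' deposited mean signal) stayed out of tests. 27 symbols are listed under more than 1 identifier.

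Differences of DKO minus WT were fitted with limma 3.58.1 in R 4.3.3 on log2(FPKM + 1) with a variance trend, two-sided, for genes with 10 or more reads, scaled to the median library total, in 2 libraries and 15 in all, with Benjamini-Hochberg adjustment. The fit has 2 residual degrees of freedom. Scripts were tested on simulated data. A fold change is the ratio of group mean FPKM, and a log2 difference is on the log2(FPKM + 1) scale, which understates low genes. Lists were described by counts and medians, without a test. Interaction of genotype and 5-aza was fitted over all 8 libraries. Alternatives varied the pseudocount, filter, scaling, trend, method, block and libraries.

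Genes were named outside the follicle families if groups did not overlap and 1 group's mean reached 1 FPKM: per direction the 15 with the smallest p, the 10 with the largest difference, and the 12 with the smallest authors' adjusted p; from each of 64 pathway lists the members called, else up to 4 by p; and Tet2, Tet3 and Krt28. Scube1, Scube3, Stat5b, Dio3, Thra, Thrb, Fst, Wnt6, Wnt10a, Myrf, Lncpint, 5330406M23Rik, Mc3r, Fam210b and the genes with an interaction were added after their values were seen. The comparison and lists were chosen with earlier results of these data known. Coordinates are those of GRCm38 (98.1% equal GENCODE's M21 release). RefSeq promoters (GRCm38.p6) matched 61.3% of tested genes. A gene and a promoter sequence that these rules gave are not reported here.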

Additional observations from a re-analysis of the deposited data

Results flagged for a closer look

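The difference between genotypes was compared between the untreated and the 5-aza libraries with limma on log2(FPKM + 1), and 5 of 18574 genes had an interaction at an adjusted p under 0.05. Values are the untreated minus the 5-aza difference, each difference being DKO minus WT on the log2 scale. The tables of the 2 treatments were made separately, so treatment and processing cannot be told apart.

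For the inner root sheath keratin gene Krt28 the value was -3.67 (adjusted p = 0.0079), and it passed in 8 of 9 alternatives, with adjusted p from 0.0091 to 0.263. Krt28 was 70.4 and 70.7 FPKM in WT and 1.98 and 2.85 FPKM in DKO without treatment and 77.6 and 83.5 FPKM in WT and 45.2 and 51.1 FPKM in DKO after 5-aza.

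The protease inhibitor gene Serpinb3b, a serpin of squamous epithelium with close paralogues, had a value of 1.22 (adjusted p = 0.0079) and passed in 6 of 9 alternatives, with adjusted p from 0.0091 to 0.263. It was 0.214 and 0.175 FPKM in WT and 1.86 and 1.79 FPKM in DKO without treatment, from 16 and 13 reads in WT and 135 and 114 in DKO, and 0 and 0 FPKM in WT and 0 and 0.0262 FPKM in DKO after 5-aza.

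The noncoding RNA Dio3os had a value of 1.00 (adjusted p = 0.0438) and passed in 0 of 9 alternatives, with adjusted p from 0.0681 to 0.527. After 5-aza it was 0.00721 and 0.00743 FPKM in WT and 0.147 and 0.262 FPKM in DKO.

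The remaining genes belong to the keratin-associated protein family. Krtap3-3 had a value of 1.62 (adjusted p = 0.0438; 0 of 9 alternatives, adjusted p from 0.0681 to 0.378), and the pseudogene Krtap19-9a had a value of 2.42 (adjusted p = 0.0438) from 0 and 0 reads in WT and 14 and 18 in DKO without treatment, and passed in 1 of the 7 alternatives that tested it, with adjusted p from 0.0377 to 0.318. Krtap19-9a was not tested without either DKO library.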

How the results depend on the processing

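The number of genes called by limma, 1 of 17448, depended on the scale and the estimate of the spread. It was 7 with a pseudocount of 0.1, 7 with 0.5, 148 with limma voom on recovered reads, 132 with all 8 libraries in one fit, 0 without a variance trend and 0 without a filter. With log2(RPM + 1), chosen after seeing the data, it was 231. Leaving out 1 library at a time gave 0 to 1; the count of 0 stood beside 2580 genes at an unadjusted p under 0.05 without WT replicate 2, 1365 without DKO replicate 1 and 859 without DKO replicate 2, and beside 1962 without a trend and 2467 without a filter. The cause was not tested. Scaling moved the balance of genes at an unadjusted limma p under 0.05, which was 1190 higher and 807 lower in the main fit. Scaling to reads in listed genes gave 1106 higher and 991 lower, and median-ratio scaling gave 1165 and 960. The median log2 difference over all tested genes was 0.011 in the main fit, -0.0077 with scaling to listed genes and -0.0020 with median-ratio scaling.

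Genes higher at an unadjusted p under 0.05 were 1190, and 792 with at least 1 FPKM in 2 libraries, where 12079 genes were tested; leaving out 1 library gave 467 to 1676. Lower genes were 807, 484 under that filter, and 392 to 962. The 5 genes with an interaction became 1 with a pseudocount of 0.1, 3 with 0.5, 1 with at least 1 FPKM, 2 without a trend and 3 to 8 without 1 library, all alternatives chosen after seeing the data.

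The replicate numbers share no stated animal, litter or batch between genotypes, and there are only 2 numbers. Xist and Ddx3y split the libraries by replicate number in both genotypes, while deviations of same-numbered libraries correlated at 0.033 across genes, which are not replicates. With the replicate block 13 genes were called, 12 higher and 1 lower, and the interaction called 0 genes with the block within each treatment, beside 866 at an unadjusted p under 0.05.

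The 110 named genes checked kept their direction in every one of up to 15 alternatives in which they were tested. This was largely fixed in advance. Genes were mostly named where the groups did not overlap, as held for all 378 tested genes that the authors' deposited table calls. For such genes leaving out a library or changing the pseudocount cannot reverse the sign, so the kept directions say little about robustness. Krt28, with an adjusted p of 0.0249, had 0.0739 to 0.330 without 1 library, 0.264 without a filter and 0.0764 without a trend. Of 80 list medians, 40 had one sign in every setting, so the small medians give no direction. With 2 libraries a group, FPKM near the value of 1 read limits genes such as Dio3os and P2ry2.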

Other observations

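Several further groups held members with higher or lower values in DKO. Of 21 tested sulfotransferases, glucuronidation enzymes and cytochromes P450, 8 were higher and 0 lower at an unadjusted p under 0.05 by limma, beside 6.82% higher over all tested genes, and the authors' deposited table calls 1 higher. The count was 3 of 19 without DKO replicate 1 and 4 of 19 without DKO replicate 2. Cyp2g1, a cytochrome P450 gene, was 4.27 and 2.09 FPKM in WT and 14.9 and 10.8 FPKM in DKO: both DKO libraries were above both WT libraries, but each group spread widely, and it is not called (adjusted p = 0.0535 in the authors' deposited table). Of 31 homeobox genes outside the Hox clusters, 2 were higher and 5 lower, and of 15 genes of the EGF receptor family and its ligands 4 were higher and 0 lower. Over all tested genes 6.82% were higher and 4.63% lower, and the homeobox count of higher genes is near that share. Without DKO replicate 1 the homeobox counts were 1 and 2, without DKO replicate 2 0 and 0, without WT replicate 1 4 and 4, and without WT replicate 2 6 and 4. The EGF list had 1 higher without either DKO library and 2 without WT replicate 2. Among immediate early genes the AP-1 subunit Fosl2 was 12.8 and 13.7 FPKM in WT and 18.7 and 21.6 FPKM in DKO (called higher, adjusted p = 3.8e-04 in the authors' deposited table). Adamts20, a secreted metalloprotease known from belted coat colour mutants, was 2.15 and 1.82 FPKM in WT and 0.861 and 1.04 FPKM in DKO and is called lower (adjusted p = 1.1e-05 in the authors' deposited table).

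Little described genes were among those with the smallest p. Fam43a was 0.755 and 0.728 FPKM in WT and 1.92 and 1.92 FPKM in DKO, with libraries of each group close together, and C2cd4a was 0.597 and 0.504 FPKM in WT and 1.52 and 1.65 FPKM in DKO from 19 and 16 reads in WT and 47 and 45 in DKO. Gm49425, a predicted gene on chromosome 15, was 31.4 and 40.9 FPKM in WT and 129 and 170.4 FPKM in DKO. It lies in a run with the keratin genes Krt87, Krt81, Krt86 and Krt83, all called higher. 4930553J12Rik, on chromosome 16, was 0.999 and 1.75 FPKM in WT and 11.6 and 17.3 FPKM in DKO. It lies in a run of keratin-associated protein genes called higher. Both are called higher in the authors' deposited table, and only their symbols kept them outside the families set aside. Mc3r, a melanocortin receptor gene, and Fam210b near it on chromosome 2 were 4.11 and 2.75 in WT and 1.67 and 1.17 in DKO and 14.7 and 10.4 in WT and 6.48 and 6.01 in DKO FPKM, and both are called lower in the authors' deposited table.

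Some genes that the naming rule gave by limma's p rest on few reads. Mir23a had 2 and 3 reads in WT and 10 and 12 in DKO, and Mir1898 had 14 and 13 in WT and 3 and 3 in DKO. The authors' deposited table calls neither (adjusted p of 0.999 for Mir23a and 0.999 for Mir1898).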
